A study of Mus musculus with 10 samples.

Results

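Peroxisome proliferator-activated receptor alpha (Ppara) and 6 genes that it can induce in liver were followed through 5 mouse liver RNA pools. The members were set by name (Ppara, Cyp4a10, Cyp4a14, Acot1, Ehhadh, Acaa1b and Pdk4), and all 7 were found among 8251 genes with a probe set of their own. Where a gene had several probe sets, the one with the highest mean over the 10 arrays stood for it, which left a choice only for Acaa1b. All 7 lay above the median signal of all genes.

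PPAR alpha is a nuclear receptor that is switched on by fatty acids and their derivatives. It pairs with a retinoid X receptor on DNA and is best known in liver for the response to fasting and to fibrate drugs, when it raises the genes of fatty acid oxidation. Its strongly inducible targets sit at different steps. Cyp4a10 and Cyp4a14 hydroxylate the far (omega) end of fatty acids, Ehhadh and Acaa1b carry out steps of peroxisomal beta-oxidation, Acot1 releases fatty acids from their coenzyme A esters, and Pdk4 shuts the pyruvate dehydrogenase complex so that carbohydrate is spared.

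The study asked which genes are directly regulated by the sterol regulatory element binding proteins (SREBPs), the transcription factors of lipid synthesis. Mice of the TgSREBP-1a and TgSREBP-2 groups carried human SREBP-1a or SREBP-2 in its active nuclear form. Together with wild type littermates they were male, 12 to 16 weeks old, and kept for 2 weeks on food with much protein and little carbohydrate, which raises transgene expression. The promoter of the transgenes is not given in the sources used here. Scap-/- mice lacked SCAP, the escort protein that SREBPs need for activation, from the liver, after deletion by MX1-Cre, a recombinase under an interferon-responsive promoter. These mice and their wild type controls were male, 10 to 12 weeks old, fed Teklad chow, injected 4 times with polyinosinic-polycytidylic acid and killed 14 days after the last injection. The controls therefore share the injections with the Scap-/- mice, but not the diet or age of the transgenic set.

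RNA of 5 livers was pooled in each group and each pool was hybridised to 2 Affymetrix arrays, so that every value below is a log2 signal on 2 arrays of 1 pool. The p-values measure the spread between hybridisations and carry no error between mice. Their number limits the precision. In bulk liver RNA, fewer cells of a type and less RNA per cell cannot be told apart. A gene was called, and is said to have risen or fallen, at an adjusted p under 0.05 in limma (Benjamini-Hochberg over 8251 genes) with at least a 1.5-fold difference. An error after ± is the moderated standard error of that fit, n = 2 arrays per group.

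Upstream sequences are shown for the members that moved in opposite directions in TgSREBP-2 liver, Ehhadh, which rose, and Acot1, which fell. Each is the 250 bases before the RefSeq start site on GRCm38.p6, 5′ to 3′ along the gene, and capitals mark a match to the sterol regulatory element TCACNCCAC on the opposite strand. Ehhadh lies on the minus strand at chr16:21787835-21788084 and Acot1 on the plus strand at chr12:84009252-84009501.
Ehhadh: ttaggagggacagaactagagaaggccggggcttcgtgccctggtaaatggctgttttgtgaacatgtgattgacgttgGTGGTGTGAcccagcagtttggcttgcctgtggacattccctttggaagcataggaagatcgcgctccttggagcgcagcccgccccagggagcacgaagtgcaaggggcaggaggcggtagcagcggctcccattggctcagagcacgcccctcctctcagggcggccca
Acot1: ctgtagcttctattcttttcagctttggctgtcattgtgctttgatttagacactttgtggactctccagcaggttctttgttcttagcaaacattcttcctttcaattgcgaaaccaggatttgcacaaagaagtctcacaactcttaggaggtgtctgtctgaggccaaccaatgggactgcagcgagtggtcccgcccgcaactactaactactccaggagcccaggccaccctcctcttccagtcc

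Windows of 300 bases, 250 before to 50 after the start, were given by RefSeq for 5 members (Ppara, Acot1, Ehhadh, Acaa1b and Pdk4). Of the 5 motifs searched on both strands, the sterol regulatory element matched only in Ehhadh, as TCACACCAC between 171 and 163 bases before the start. The same motif was found in 408 of 32851 RefSeq windows, or 1.24%. The PPAR element, a direct repeat of AGGTCA with 1 base between its arms, was in none of the 5 member windows and in 0.0396% of all windows. The same repeat with any base at the T of each arm was in 0.381% of windows and in no member, the single arm AGGTCA, which the full element holds, in 16.3% and in no member, and the E-box CACGTG in 7.15% and in no member. A match is a run of letters and not a shown binding site, and a missing match says only that these letters are not in this window.

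**Figure D1:**
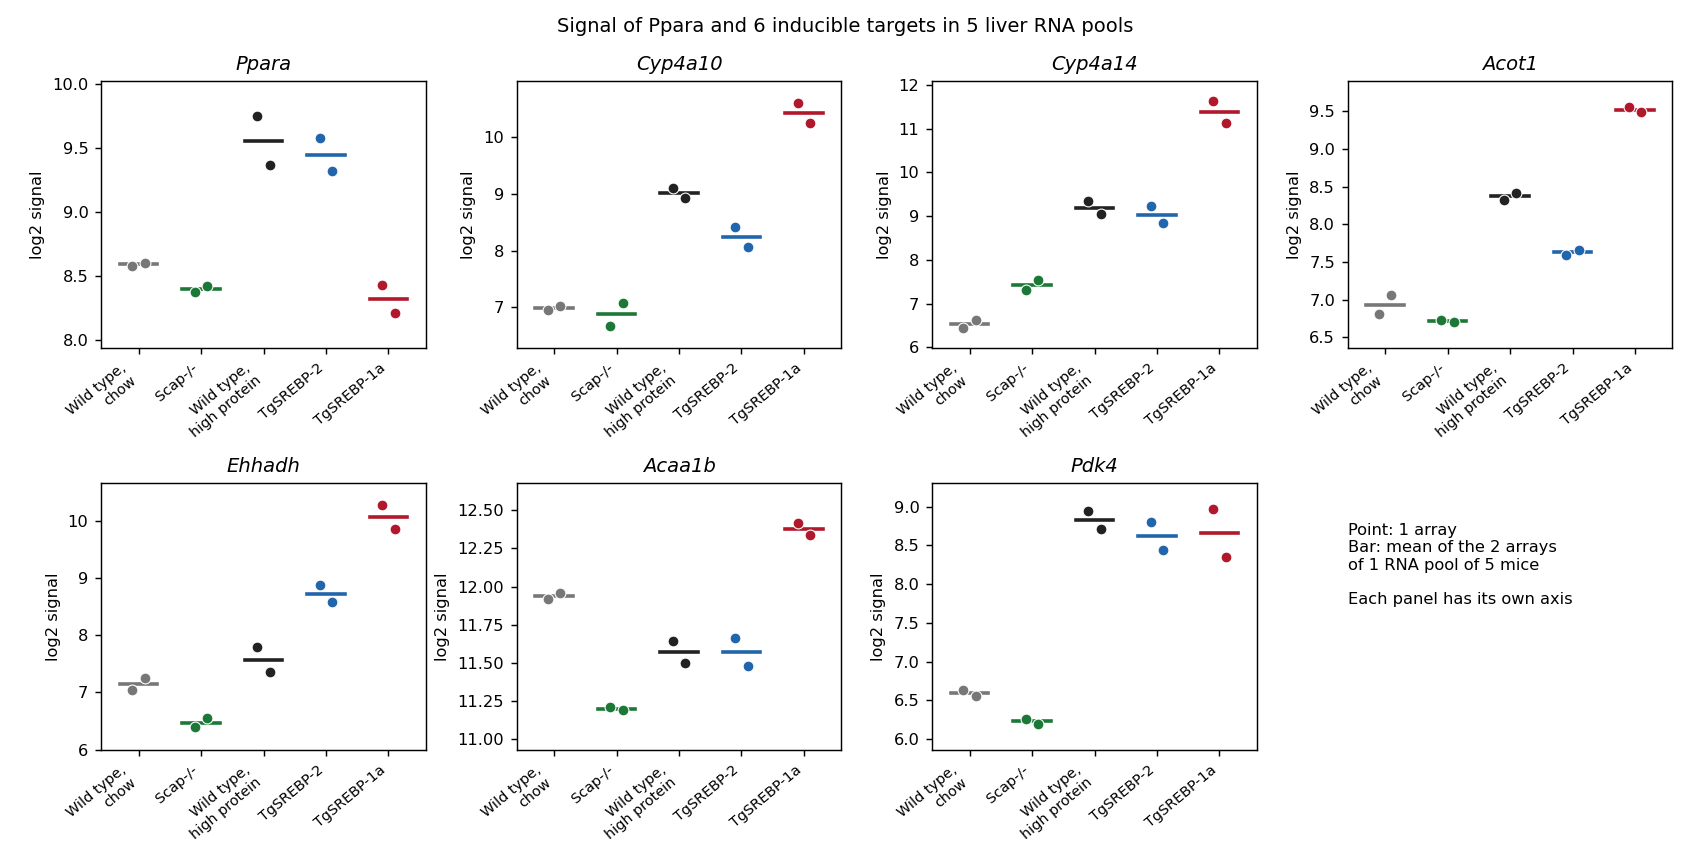
Log2 signal (y axis, a separate scale for each gene) of the 7 members in the 5 RNA pools (x axis), with a point for each array and a bar for the mean of 2 arrays. Cyp4a10, Cyp4a14, Acot1, Ehhadh and Acaa1b stand highest in TgSREBP-1a, where Ppara has its lowest mean (8.32).

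In TgSREBP-1a liver the receptor and its targets moved apart: Ppara fell 2.36-fold while 5 of its 6 targets rose by 1.75-fold to 5.63-fold. Of the 7 members, 6 were called, 5 higher and 1 lower. Of all genes 7.37% were called in this comparison, 4.78% higher and 2.59% lower. Pdk4 was the member that was not called.

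Ppara, the receptor itself, read 8.43 and 8.21 on the TgSREBP-1a arrays against 9.75 and 9.37 in wild type mice on the same diet. Both transgenic arrays lay below both wild type arrays. The difference was -1.24 ± 0.13 (limma adjusted p = 0.000105). The level in TgSREBP-1a overlapped that of Scap-/- mice on chow, at 8.37 and 8.42.

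The omega-hydroxylases rose strongly. Cyp4a14 read 11.63 and 11.13 in TgSREBP-1a against 9.35 and 9.04 in wild type, a difference of 2.18 ± 0.19 or 4.54-fold (limma adjusted p = 1.66e-05). Cyp4a10 read 10.60 and 10.26 against 9.11 and 8.92, a difference of 1.42 ± 0.16 or 2.67-fold (limma adjusted p = 0.000155). For both genes the 2 pools did not overlap. The genes are neighbours in the annotation, with 0 protein-coding genes between them, and belong to 1 family of similar sequences. The name of the Cyp4a10 probe set ends in _f_at, the array maker's mark for probes shared within a gene family, so its signal may include relatives.

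Ehhadh, the bifunctional hydratase and dehydrogenase of peroxisomes, rose most of the 7. It read 10.27 and 9.86 in TgSREBP-1a against 7.79 and 7.36 in wild type, a difference of 2.49 ± 0.17 or 5.63-fold (limma adjusted p = 3.71e-06). It had the 38th largest absolute difference of all genes. Acaa1b, a peroxisomal thiolase, was already bright and rose less, from 11.64 and 11.50 to 12.42 and 12.34. That was 0.81 ± 0.09 or 1.75-fold (limma adjusted p = 0.00012). Its dimmer probe set rose by 0.77 ± 0.08, and its close relative Acaa1a differed by 0.39 ± 0.11, short of 1.5-fold.

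Acot1, the cytosolic acyl-CoA thioesterase, read 9.56 and 9.49 in TgSREBP-1a against 8.33 and 8.42 in wild type. The rise of 1.15 ± 0.09 was 2.21-fold (limma adjusted p = 1.35e-05), and the groups were well separated. Acot1 also has close relatives in the genome, and whether its probes read them is not known here. Pdk4 read 8.97 and 8.35 in TgSREBP-1a and 8.94 and 8.71 in wild type, so that the groups overlapped. Its difference was -0.17 with a 95% interval from -0.57 to 0.24.

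TgSREBP-2 liver, compared with the same wild type pool, gave a mixed picture: Ehhadh rose, Cyp4a10 and Acot1 fell, and the other 4 members were not called. The 3 called members of 7 stand beside 2.57% of all genes called, 2.18% higher and 0.388% lower. Because both transgenic comparisons use the 2 arrays of 1 wild type pool, they are not independent.

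Ehhadh read 8.87 and 8.58 in TgSREBP-2, above both wild type arrays at 7.79 and 7.36. The rise was 1.15 ± 0.17 or 2.22-fold (limma adjusted p = 0.00322). Acot1 read 7.60 and 7.66, below the wild type values of 8.33 and 8.42. It fell by 0.75 ± 0.09, or 1.68-fold (limma adjusted p = 0.00106). Cyp4a10 read 8.41 and 8.07 against 9.11 and 8.92, a difference of -0.77 ± 0.16 or 1.70-fold (limma adjusted p = 0.0213). Its groups did not overlap, but the call was lost in limma without wild type replicate 1 or 2 (adjusted p = 0.124 and 0.052), without TgSREBP-2 replicate 2 (adjusted p = 0.112), and when only the 3 groups on the high-protein diet were fitted (adjusted p = 0.0515).

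Cyp4a14 read 9.23 and 8.84 in TgSREBP-2, within the reach of wild type at 9.35 and 9.04, with a difference of -0.16 and a 95% interval from -0.57 to 0.25. Ppara read 9.58 and 9.32 and also overlapped wild type, with a difference of -0.11 and a 95% interval from -0.41 to 0.19. Pdk4 differed by -0.21 with a 95% interval from -0.62 to 0.20. Acaa1b read 11.66 and 11.48, and its difference of 0.01 had a 95% interval from -0.19 to 0.20. Of these 4 intervals, that of Pdk4 reached past the 1.5-fold threshold, which is 0.585 on the log2 scale.

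**Figure D2:**
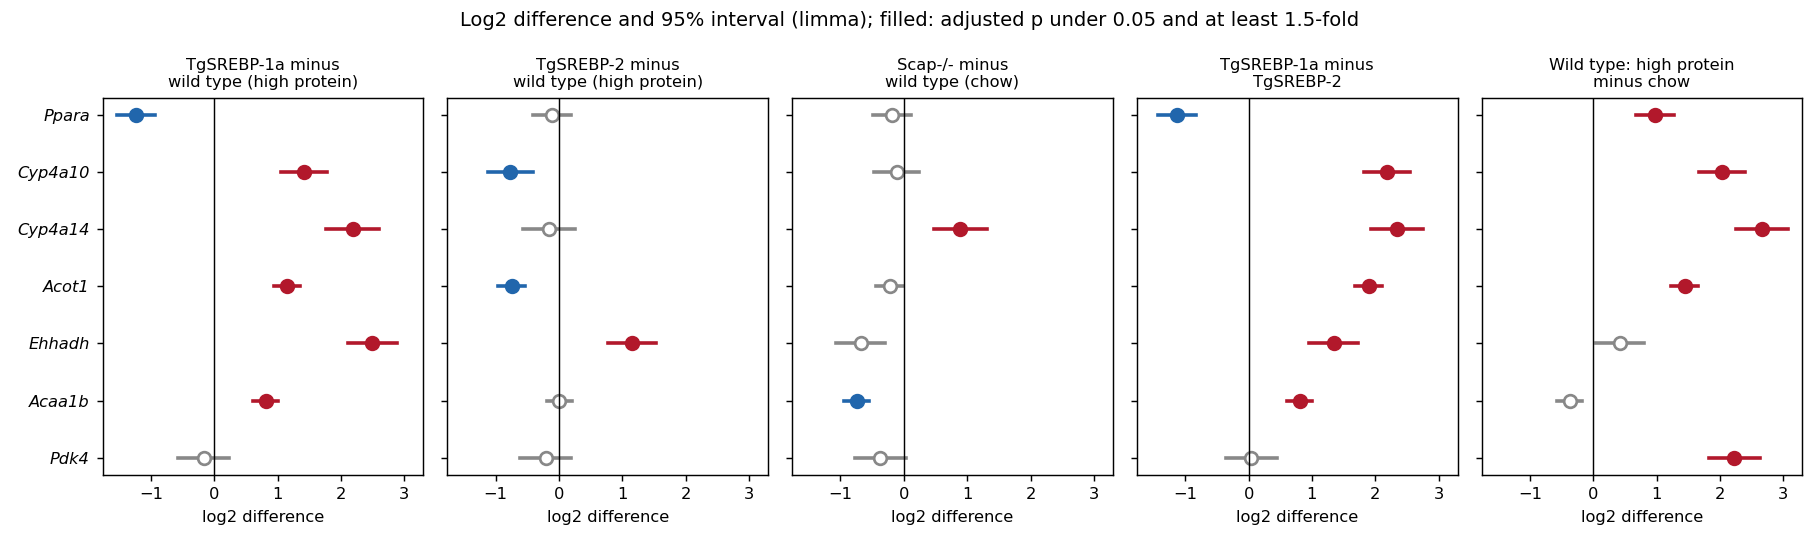
Log2 difference (x axis) of each member (rows) in 5 comparisons (panels), with its 95% interval from limma. Filled points were called, red higher and blue lower. Ehhadh is the member that was called higher in both transgenic pools against wild type, at 2.49 and 1.15.

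The 2 transgenic pools were compared directly, which tests whether these pools differ beyond the spread between hybridisations. The expression level of the 2 transgenes was not compared here. Of the 7 members, 5 were higher and 1, Ppara, was lower in TgSREBP-1a than in TgSREBP-2, while 5.19% of all genes were called, 2.24% higher and 2.95% lower. Cyp4a14 differed by 2.34 ± 0.19 (5.07-fold), Cyp4a10 by 2.19 ± 0.16 (4.56-fold) and Acot1 by 1.90 ± 0.09 (3.72-fold). Ehhadh differed by 1.34 ± 0.17 (2.54-fold) and Acaa1b by 0.81 ± 0.09 (1.75-fold). Ppara differed by -1.12 ± 0.13 (2.18-fold). The limma adjusted p of these 6 ran from 4.01e-07 for Acot1 to 0.00046 for Ehhadh. Pdk4 did not pass, at 0.04 with a 95% interval from -0.36 to 0.45.

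In Scap-/- liver on chow, 2 members were called in opposite directions: Acaa1b fell and Cyp4a14 rose. Of all genes 1.66% were called, 0.739% higher and 0.921% lower. Acaa1b read 11.21 and 11.19 against 11.92 and 11.96 in chow-fed wild type, and fell by 0.74 ± 0.09 or 1.67-fold (limma adjusted p = 0.000935). The dimmer probe set of the gene read 9.65 and 9.69 against 10.18 and 10.21. Its difference of -0.52 ± 0.08 fell short of 1.5-fold (limma adjusted p = 0.00358).

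Cyp4a14 read 7.31 and 7.55 in Scap-/- and 6.44 and 6.63 in wild type, a rise of 0.89 ± 0.19 or 1.86-fold (limma adjusted p = 0.0296). Leaving out any 1 of these 4 arrays ended that call (limma adjusted p = 0.0902, 0.28, 0.284 and 0.13). With all 4 arrays kept, the call of Cyp4a14 held when only the 2 pools on chow were fitted, at the same difference of 0.89. The neighbouring Cyp4a10 read 6.67 and 7.07 against 6.94 and 7.02, overlapping, with a 95% interval of the difference from -0.47 to 0.24.

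Ehhadh read 6.39 and 6.55 in Scap-/-, below both wild type arrays at 7.05 and 7.25. The difference of -0.68 ± 0.17 did not pass in the fit over all 5 groups (limma adjusted p = 0.0814). It passed when only the 2 pools on chow were fitted (limma adjusted p = 0.000161), whose duplicates lay at least 1.5-fold apart in 6 and 0 genes. It also passed when TgSREBP-1a replicate 1 or 2 (limma adjusted p = 0.0406 each) or high-protein wild type replicate 1 or 2 (limma adjusted p = 0.0476 each) was left out. Ppara read 8.37 and 8.42 against 8.58 and 8.60, a difference of -0.19 with a 95% interval from -0.49 to 0.11. Acot1 differed by -0.22 (-0.43 to -0.01) and Pdk4 by -0.37 (-0.78 to 0.03), and neither was called.

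The 2 wild type pools also differed in most members, and for Cyp4a14 and Pdk4 this was the largest difference of the 5 comparisons. Against wild type on chow, the high-protein pool had higher Ppara, Cyp4a10, Cyp4a14, Acot1 and Pdk4, 5 of the 7 members. Of all genes 5.62% were called, 1.28% higher and 4.34% lower. After quantile normalization between arrays the split of all called genes moved from 106 higher and 358 lower to 139 and 277, while the same number of members, 5, was called. Diet, age and injections all differ between these pools and cannot be told apart.

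Cyp4a14 was 2.66 ± 0.19 higher, 6.31-fold, with 9.35 and 9.04 against 6.44 and 6.63. This was the 5th largest absolute difference of all genes. Pdk4 was 2.23 ± 0.18 higher, 4.68-fold, with 8.94 and 8.71 against 6.64 and 6.56, and ranked 14th. Cyp4a10 was 2.03 ± 0.16 higher (4.08-fold, rank 18) and Acot1 1.44 ± 0.09 higher (2.71-fold, rank 41). Ppara was 0.97 ± 0.13 higher, 1.96-fold (limma adjusted p = 0.00109). The adjusted p of the other 4 lay between 9.01e-06 and 3.27e-05.

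The peroxisomal enzymes were not called in this comparison. Ehhadh was 0.42 ± 0.17 higher on the high-protein diet, with a 95% interval from 0.04 to 0.80 and no overlap of the arrays (limma adjusted p = 0.105). Without wild type replicate 2 on that diet it reached 0.64 (limma adjusted p = 0.0453). Acaa1b was lower, at -0.37 ± 0.09, and short of 1.5-fold (limma adjusted p = 0.0159).

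Across the 5 pools the members therefore followed different orders. The group means of all 7 spanned at least 1 log2 unit, which 6.05% of all genes did, and their median span was 2.81 against 0.30 over all genes. Cyp4a14 spanned most, 4.84 or 28.7-fold from wild type on chow to TgSREBP-1a, followed by Ehhadh with 3.60 and Cyp4a10 with 3.56. The order of Cyp4a10 and Acot1 was the same: Scap-/-, wild type on chow, TgSREBP-2, the high-protein wild type, TgSREBP-1a. For Acot1 no neighbours in that order overlapped, and for Cyp4a10 only the first pair did. The order of Ehhadh was Scap-/-, wild type on chow, the high-protein wild type, TgSREBP-2 and TgSREBP-1a, with no overlap between neighbours.

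Pdk4 formed 2 levels, from 6.20 to 6.64 in the 4 chow arrays and from 8.35 to 8.97 in the 6 arrays of the high-protein diet, and its 3 pools on that diet overlapped. Acaa1b had a narrow span of 1.18, with Scap-/- lowest and TgSREBP-1a highest, and the high-protein wild type and TgSREBP-2 overlapping between them. Ppara spanned 1.24, with TgSREBP-1a and Scap-/- overlapping at the bottom and TgSREBP-2 and the high-protein wild type overlapping at the top.

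**Figure D3:**
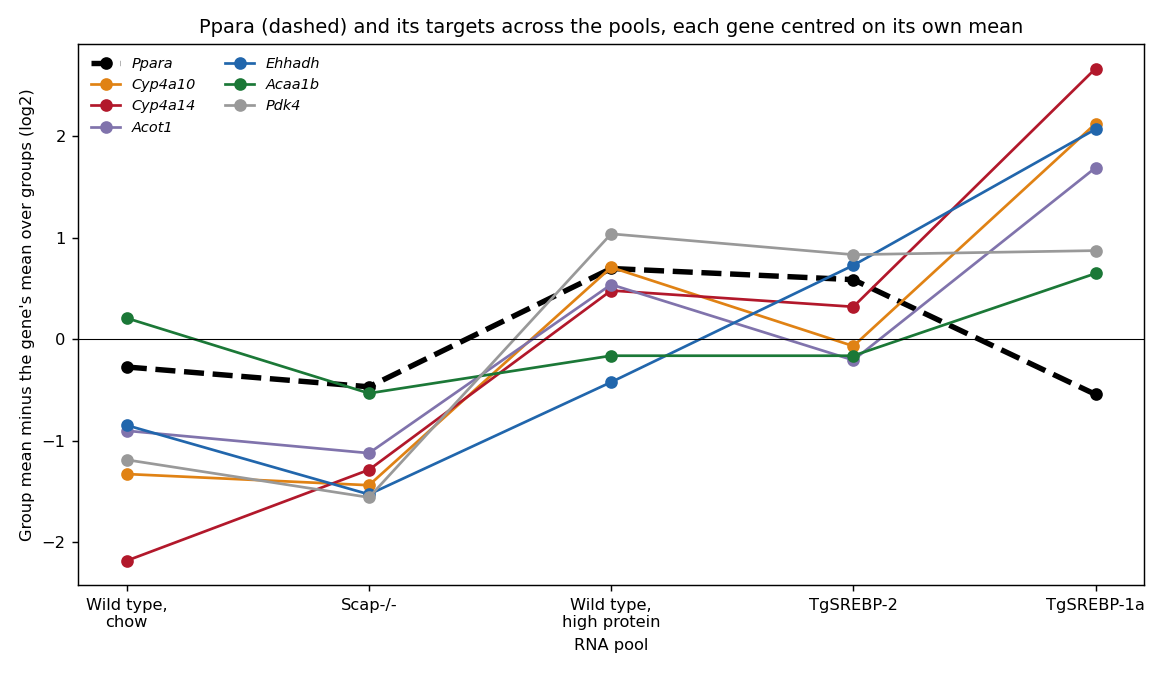
Group mean of each member minus its own mean over the 5 pools (y axis, log2) across the pools (x axis), with Ppara dashed. Ppara and Pdk4, Cyp4a10, Cyp4a14 and Acot1 are higher in the high-protein wild type than on chow, whereas in TgSREBP-1a Ppara is low and 5 targets are at their highest.

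Genes with the most similar profiles were sought among genes whose group means span at least 1 log2 unit, by the root mean squared difference of centred log2 profiles over the 10 arrays. Of the 7 members, 3 had another member among their 3 closest genes, namely Cyp4a10, Cyp4a14 and Acot1. Acot1 was the closest to Cyp4a10 of 498 candidates (0.36), and Cyp4a10 the closest to Cyp4a14 (0.50). Igfbp1, a secreted binding protein of insulin-like growth factors, was among the 3 closest genes of 4 members. It was the closest to Ehhadh (0.38) and to Pdk4 (0.52), against medians of 1.45 and 1.37 over their candidates. The likeness was partial. Igfbp1 differed by 1.40 in TgSREBP-1a, where Pdk4 differed by -0.17. Between the wild type pools it differed by 1.33, where Ehhadh differed by 0.42. Next to Ehhadh came the phospholipid transfer protein Pltp (0.39) and the fatty acid desaturase Fads1 (0.42). Between the wild type pools Pltp and Fads1 differed by -0.43 and -0.30, opposite in sign to Ehhadh. The closest to Acot1 was Retreg1 (0.28), a receptor for autophagy of the endoplasmic reticulum, and that to Acaa1b was Gstm6, a glutathione transferase (0.12). Ppara was closest to Pck1, the gluconeogenic enzyme (0.20), against a median of 0.83 over its candidates. When each of the 10 arrays was left out in turn, these named pairs stayed among the 3 closest in 10 of 10 cases, except Pck1 with 9 and Fads1 with 7. Of the other pairs of members, Acot1 stayed among the 3 closest to Cyp4a14 in 3 of 10 cases. Cyp4a14 stayed among those of Cyp4a10, and Cyp4a10 among those of Acot1, in 9.

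The wider surroundings of the members were read from 5 lists of other genes, of which 72 of 98 were measured. The lists cover peroxisomal and mitochondrial oxidation, fatty acid handling, receptor partners, and the pyruvate dehydrogenase complex on which Pdk4 acts. Being listed does not make a gene a PPAR alpha target, so the shares below are not shares of PPAR alpha targets. In TgSREBP-1a 11 rose and 3 fell, 19.4% of those measured beside 7.37% of all genes. The median difference was 0.04 against -0.03 over all genes. In TgSREBP-2 2 rose and none fell, or 2.78%, close to the 2.57% of all genes. In Scap-/- limma called 0 of 72, beside 1.66% of all genes, while 11 had an unadjusted p under 0.05. Between the transgenic pools 11 were higher and 2 lower in TgSREBP-1a, or 18.1% beside 5.19% of all genes. Between the wild type pools 6 were higher and 5 lower on the high-protein diet, or 15.3% beside 5.62% of all genes. After quantile normalization that split became 6 higher and 1 lower. By an unadjusted p under 0.05 alone, 38, 24, 11, 31 and 38 of the 72 passed in these 5 comparisons, against 29.6%, 17.1%, 9.78%, 21.4% and 37.2% of all genes. By the adjusted p alone 29, 6, 0, 21 and 27 passed, against 16.6%, 5.05%, 2.84%, 11% and 22.7% of all genes, and so did 6, 3, 2, 6 and 6 of the 7 members.

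Of 13 peroxisomal genes, 4 rose in TgSREBP-1a and none fell, with a list median of 0.21. Hsd17b4, the second bifunctional enzyme of peroxisomal oxidation, rose by 0.98 ± 0.09, the carnitine acetyltransferase Crat by 0.79 ± 0.09, the dienoyl-CoA isomerase Ech1 by 0.69 ± 0.10 and the peroxisomal membrane transporter Abcd3 by 0.61 ± 0.07. Abcd3 was short of 1.5-fold without TgSREBP-1a replicate 1 (0.58). In TgSREBP-2 only Acaa1a was called, at 0.65 ± 0.11, where Acaa1b stood at 0.01. That call was lost without wild type replicate 2 (limma adjusted p = 0.0521) or TgSREBP-2 replicate 1 (limma adjusted p = 0.0705), and after quantile normalization (0.52, short of 1.5-fold).

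Of the same 13, Eci2, an enoyl-CoA isomerase, was higher in the high-protein wild type than on chow (0.61 ± 0.11), while Acaa1a (-0.67 ± 0.11) and Hsd17b4 (-0.60 ± 0.09) were lower. Eci2 was short of 1.5-fold without chow wild type replicate 1 (0.54). Acaa1a and Hsd17b4 were short of it without replicate 2 of the high-protein wild type (-0.57 and -0.52) and after quantile normalization (-0.49 and -0.46).

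Of 16 genes of mitochondrial oxidation and ketogenesis, only Decr1, the dienoyl-CoA reductase, was called in TgSREBP-1a, at 0.62 ± 0.18 (limma adjusted p = 0.0389). This call was lost in several settings, with 0.40 without wild type replicate 2 and 0.43 without TgSREBP-1a replicate 1. Limma called 0 of 16 in TgSREBP-2 and in Scap-/-, where 2 and 1 had an unadjusted p under 0.05. In TgSREBP-1a 8 of 16 had such a p, with a list median of 0.09. Between the wild type pools 11 of 16 had one, with a list median of -0.26 against 0.01 over all genes, and 2 were called. The electron carrier subunit Etfb was lower on the high-protein diet (-0.75 ± 0.08, but -0.32 as the mean of its probe sets). The carnitine transporter Slc22a5 was higher (0.59 ± 0.10), and short of 1.5-fold without chow wild type replicate 2 (0.58) or replicate 1 on the high-protein diet (0.51).

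Of 18 genes of fatty acid handling and secreted targets, 4 rose and 3 fell in TgSREBP-1a. Pltp rose by 2.94 ± 0.13, the triglyceride lipase Lpl by 2.19 ± 0.17 and the retinol saturase Retsat by 1.26 ± 0.14. Vnn1 was the 4th that rose, at 0.62 ± 0.18, a call lost in several settings, with 0.31 without TgSREBP-1a replicate 1. The arachidonic acid epoxygenase Cyp2j5 fell by 0.70 ± 0.13, short of 1.5-fold without wild type replicate 1 (-0.57). Angptl4 (-0.64 ± 0.08) and Gpd1 (-0.60 ± 0.10) also fell. Both were short of 1.5-fold as the mean of their probe sets (-0.36 and -0.41). In TgSREBP-2 Pltp alone was called, at 1.96 ± 0.13. Pltp and Lpl are also known targets of other lipid regulators, so their list membership does not assign them to PPAR alpha. Between the wild type pools Txnip (1.10 ± 0.08), the lipase inhibitor Angptl4 (0.88 ± 0.08) and the lipid droplet protein Plin2 (0.80 ± 0.07) were higher on the high-protein diet, Angptl4 by 0.57, short of 1.5-fold, as the mean of its probe sets. Vnn1, a pantetheinase, was higher by 1.30 ± 0.18 in TgSREBP-1a than in TgSREBP-2.

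Receptor partners and coregulators showed 1 call among 19 in TgSREBP-1a, Lpin1, a phosphatidate phosphatase and coactivator, at 1.26 ± 0.16. It was also called higher in TgSREBP-1a than in TgSREBP-2, and in the high-protein wild type than in the chow pool (1.19 ± 0.16). Nr1h3, the oxysterol receptor LXR alpha, was lower in the high-protein wild type (-0.68 ± 0.11), short of 1.5-fold without chow wild type replicate 2 (-0.56) and after quantile normalization (-0.58). Limma called 0 of 19 in TgSREBP-2 and in Scap-/-, with 3 and 3 at an unadjusted p under 0.05.

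Of 6 genes of the pyruvate dehydrogenase complex and its kinases, Pdk1 rose in TgSREBP-1a while its relative Pdk4 was not called. Pdk1 read 8.64 and 8.11 in TgSREBP-1a against 6.63 and 6.33 in wild type, a rise of 1.89 ± 0.17 (limma adjusted p = 2.61e-05). The subunit Pdhb was lower in the high-protein wild type than on chow (-1.04 ± 0.15), the comparison in which Pdk4 was 2.23 higher.

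**Figure D4:**
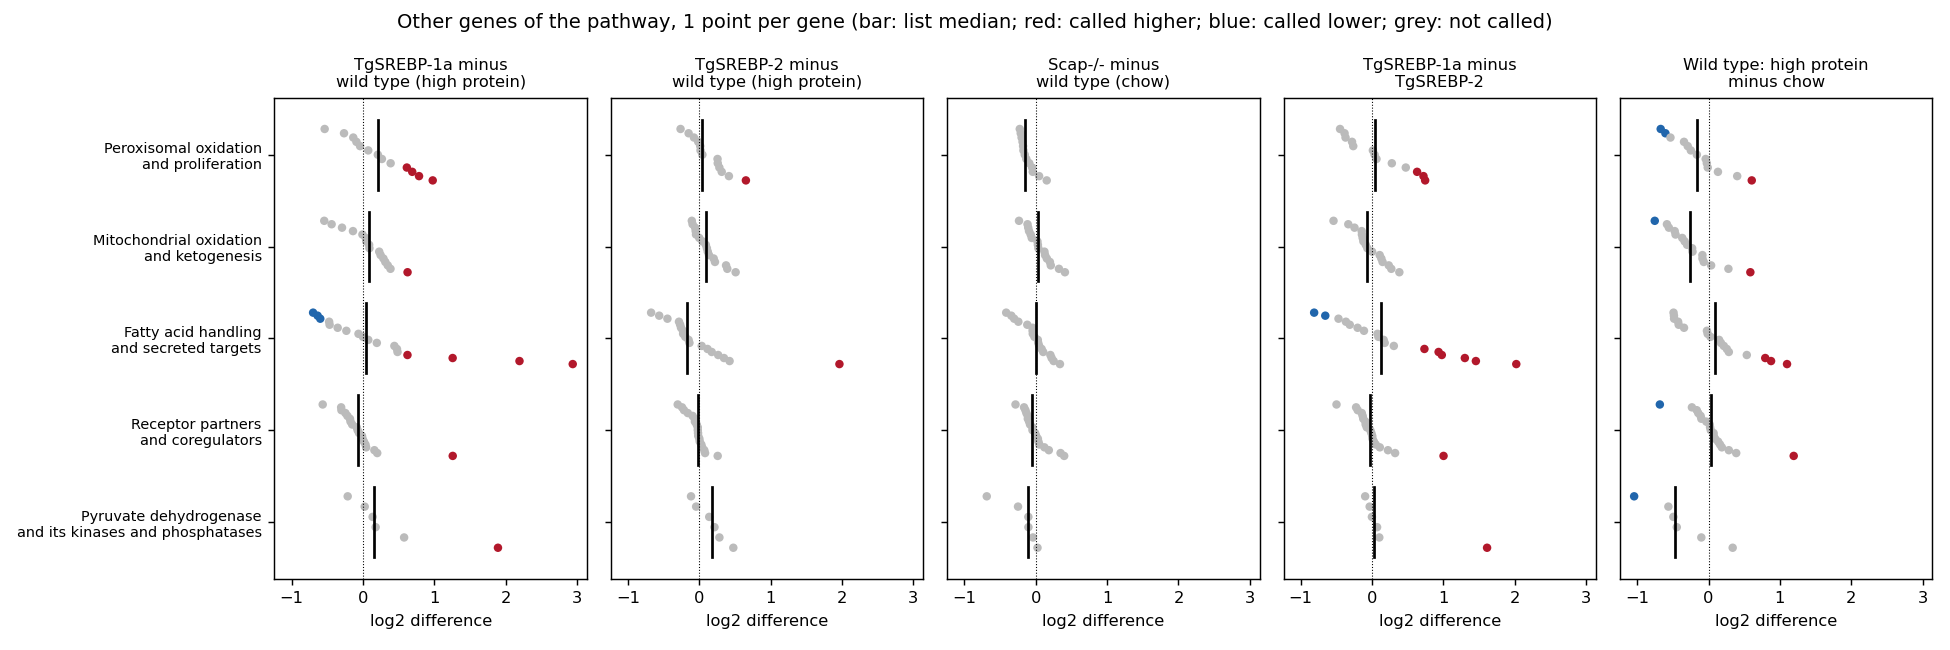
Log2 difference (x axis) of the measured genes of 5 pathway lists (rows), 1 point per gene, in 5 comparisons (panels), with the list median as a bar. Red points were called higher, blue lower and grey not called. In TgSREBP-1a the peroxisomal list has 4 genes called higher and a median of 0.21. In Scap-/-, where 1.66% of all genes were called, all 72 points are grey.

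Liver identity and other cell types were checked with marker lists fixed beside these. Of 6 hepatocyte markers, albumin read 13.48 to 13.85 over the 10 arrays. The transport protein Ttr fell in TgSREBP-1a (-1.37 ± 0.10) and was lower in the high-protein than in the chow wild type (-0.69 ± 0.10), while the aminotransferase Tat rose in TgSREBP-1a (0.77 ± 0.11). The summed linear signal of the 6 ran from 36317 to 42422.

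Exocrine pancreas markers differed most: the sum of 6 was 14463 to 14573 in the high-protein wild type, 1094 to 1100 in TgSREBP-1a and 19813 to 20232 in TgSREBP-2. It was 7146 to 7226 in chow-fed wild type and 1593 to 1648 in Scap-/-. All 6 were called lower in TgSREBP-1a and in Scap-/-, each against its own wild type. Macrophage markers summed to 2760 to 2767 in the high-protein wild type, 4440 to 4664 in TgSREBP-1a, 3565 to 3834 in TgSREBP-2, 4032 to 4294 in chow-fed wild type and 3932 to 3996 in Scap-/-.

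Skeletal muscle, a tissue that also expresses Pdk4, was represented by 7 genes. Their sum was 468 to 473 in chow-fed wild type, 913 to 944 in Scap-/-, 874 to 1009 in the high-protein wild type, 440 to 485 in TgSREBP-1a and 832 to 860 in TgSREBP-2. The muscle actin Acta1 accounted for most of that spread, with 5.59 to 6.24 on the 4 arrays of TgSREBP-1a and chow-fed wild type and 8.43 to 9.04 on the other 6. Tnnt3 and Mb were split in the same way at lower levels. Tnnt3 read 4.93 to 5.29 on those 4 arrays and 5.68 to 6.08 on the other 6, and Mb 5.55 to 5.72 and 5.85 to 6.28. The muscle creatine kinase Ckm read 6.06 to 6.39 on all arrays, and Myh4, Myh2 and Mylpf also overlapped between these sets of arrays. The sum of 5 adipocyte markers was 2074 to 2223 in the high-protein wild type, 1169 to 1176 in TgSREBP-1a, 1858 to 1945 in TgSREBP-2, 2354 to 2401 in chow-fed wild type and 2861 to 3106 in Scap-/-. The carbonic anhydrase Car3 accounted for most of that spread, with 7.76 and 7.50 in TgSREBP-1a and 9.80 to 11.17 on the other arrays. Car3 fell (-2.57 ± 0.12) and the lipid droplet protein Cidea rose (2.03 ± 0.12) in TgSREBP-1a. On all arrays the hormone Adipoq read 4.13 to 4.69 and Lep 9.25 to 9.69. The other lists were compared between TgSREBP-1a and the high-protein wild type. Lymphocyte markers summed to 1459 to 1471 against 973 to 1091, and endothelial markers to 427 to 497 against 358 to 363. Stellate markers summed to 2123 to 2227 against 1752 to 1784, and red cell markers to 4111 to 4294 against 2703 to 2944. Cholangiocyte markers were lower (105 to 117 against 123) and neutrophil markers overlapped (435 to 454 against 438). The part of all these markers in the member values was not tested.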

How the data were processed

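Liver RNA pools of 5 mice (20 µg) were hybridised to MG_U74Av2 arrays, 2 per group, 10 in all. The deposited table holds log2 signals of 12488 probe sets, made with RMA per the submitters' processing notes (the sources used here give no version), although the design text per the labels names Microarray Suite 5.0. Values ran from 2.68 to 14.03 with array medians of 6.37 to 6.40. Probe sets were named from the platform's annotation, and gene IDs were matched to RefSeq (10817 of 10833 with 1 symbol), which changed 0 symbols. Probe sets with several (396) or no symbols (1193) and 66 controls were left out.

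One coefficient per group was fitted to all 10 arrays in limma 3.58.1 (lmFit, then eBayes; R 4.3.3) (5 residual degrees of freedom, no block), for 5 contrasts. The code was tested on simulated data. Duplicates correlated at 0.9921 to 0.9978 and differed at least 1.5-fold in 151 genes of TgSREBP-1a, 101 of the high-protein wild type, 55 of TgSREBP-2, 6 of Scap-/- and 0 of wild type on chow. The shared variance may therefore give errors too small for the high-protein set and too large for Scap-/-. Deviations of arrays with the same replicate number correlated at 0.46, 0.61 and 0.60 within the high-protein set, and at 0.30 in the chow set. The main fit, which gave the differences, errors and p-values above, did not pair arrays by these numbers. A block for the replicate number within each set was fitted only as an alternative.

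Members, lists, motifs and tests were chosen with earlier results of these data known. Named genes are the members, the 3 most alike genes per member, and up to 4 called genes per list and comparison with the largest differences. Single cell type markers, Acaa1a where not called, and Angptl4, Gpd1 and Vnn1 in TgSREBP-1a were added after their values were seen. Alternatives were leaving out each array, a replicate block, fewer groups, other probe sets, quantile normalization, a signal filter, another variance model and other thresholds.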

Additional observations from a re-analysis of the deposited data

Results flagged for a closer look

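Acot1 and Cyp4a10 stood out because the 2 transgenes were associated with calls in opposite directions. Acot1 was 1.15 ± 0.09 higher in TgSREBP-1a and 0.75 ± 0.09 lower in TgSREBP-2 than in the shared wild type pool. The direct comparison of the transgenic pools gave a difference of 1.90 ± 0.09 (limma adjusted p = 4.01e-07), and all of these calls held when each array was left out in turn (1.86 to 1.93 for the direct difference). Cyp4a10 was 1.42 ± 0.16 higher in TgSREBP-1a and 0.77 ± 0.16 lower in TgSREBP-2. The direct difference was 2.19 ± 0.16 (limma adjusted p = 7.93e-06), and the call in TgSREBP-2 alone depended on single arrays, as given with its values.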

How the results depend on the processing

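Of 565 recomputed member values, 539 kept their direction and their side of the threshold, 9 lost a call, 7 gained one and 10 changed sign, none of them a called value. Many of the 565 could not change direction, so the 539 is no measure of robustness. The log2 difference stays the same without an array of a group outside the comparison. It also stays the same with the block, fewer groups, the signal filter and the other variance model. Signs changed for Acaa1b in TgSREBP-2 after quantile normalization (-0.13). When single arrays were left out, they changed for Acaa1b (-0.087 to 0.098), Cyp4a14 (-0.35 to 0.034) and Ppara (-0.30 to 0.08) in TgSREBP-2. They also changed for Pdk4 in TgSREBP-1a (-0.47 to 0.14) and between the transgenic pools (-0.26 to 0.35), and for Cyp4a10 in Scap-/- (-0.31 to 0.084). The number of members called in Scap-/- ran from 1 to 3 with an array left out, and was 0 at a 2-fold threshold. In TgSREBP-2 it was 1 at 2-fold.

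With no fold threshold TgSREBP-1a had 1366 calls among all genes, TgSREBP-2 417 and Scap-/- 234, with 911 between the transgenic pools and 1869 between the wild type pools, against 608, 212, 137, 428 and 464. At 2-fold these were 240, 72, 53, 185 and 110. The pathway lists, tried in the same settings after the data were seen, held 14, 2, 0, 13 and 11 calls. These became 29, 6, 0, 21 and 27 with no fold threshold and 5, 1, 0, 5 and 3 at 2-fold. With an array left out they were 1 to 4 in TgSREBP-2 and 0 to 1 in Scap-/-, and between the wild type pools 7 (6 higher, 1 lower) after quantile normalization. With the replicate number as a block, the pairing changed no member call except Ehhadh in Scap-/-, which passed (-0.68, limma adjusted p = 9.04e-05). Counts with the block were 618, 229, 150, 442 and 479 genes. Without detection calls and with 2 arrays of 1 pool per group, differences between mice cannot be judged.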
